A study of Mus musculus with 9 samples.

Results

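The 9 genes described here encode 8 CXC chemokines (Cxcl1, Cxcl2, Cxcl9, Cxcl10, Cxcl12, Cxcl13, Cxcl14 and Cxcl16) and Cx3cl1, the ligand of the CX3C class. They were taken by symbol from a table of 23413 genes, in which all 9 have a row, and 7 of them had enough counts to enter the test of 11393 genes. Cxcl12 and Cxcl13 did not. RNA had been sequenced from macrophages, labelled Kupffer cells (KCs, the resident macrophages of the liver), that were sorted from the livers of male C57BL/6 mice that started their diets at 5 weeks of age and stayed on them for 8 weeks. The ND group (2 libraries) received a normal diet with 10 kcal% fat and, by its labels, no treatment. Both other groups received a high-fat diet (HFD, 60 kcal% fat), together with the vehicle PEG3000 (HFD + vehicle, 3 libraries, Veh1 to Veh3) or with DPI dissolved in it (HFD + DPI, 4 libraries, DPI1 to DPI4). DPI (diphenyleneiodonium) was tested in the study as an agonist of the receptor GPR3 and is also an inhibitor of NADPH oxidases. The series describes doses of 2 mg/kg every 5 days from week 3, whereas a protocol field of the samples names 500 nM DPI and 24 h. Grouping followed the sample titles, by which the mice themselves were treated. The comparisons ask how the diet, and DPI on top of the diet, changed gene expression in these cells. The titles give each library a mouse number, whereas 6 mice per group are described for this experiment. Whether mice were pooled or only some were sequenced is not given in the sources used here, so n and SD below are over libraries.

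Chemokines are small secreted proteins that bind G protein-coupled receptors and guide leukocytes along concentration gradients. CXCL1 and CXCL2 call neutrophils through CXCR2, CXCL9 and CXCL10 call T and NK cells through CXCR3 and are classic products of interferon gamma signalling, CXCL12 acts through CXCR4, and CXCL13 guides B cells through CXCR5. CXCL16 and CX3CL1 differ from the others in that they are made as membrane proteins with a chemokine head on a stalk, which the proteases ADAM10 and ADAM17 can shed, and they bind CXCR6 and CX3CR1. In the liver, macrophages, sinusoidal endothelium, stellate cells and hepatocytes are all possible sources of chemokines.

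The libraries held 3534325 to 15585775 counts, of which 27.0% to 44.5% fell on the ribosomal RNA precursor Rn45s. Levels are given as CPM, in which each library is brought to the same TMM-scaled total, and 3 counts, taken as the floor below which a gene is not told apart from absent, were worth 0.184 to 1.02 CPM. The ND libraries resembled each other least, with a rank correlation over the 11393 tested genes of 0.740. It was 0.867 to 0.880 within HFD + vehicle and 0.838 to 0.887 within HFD + DPI. The gate (F4/80+CD11b+Gr1low) holds KCs together with monocyte-derived macrophages, and the study's methods put KCs at 80 to 90% of the sorted cells. The general macrophage genes Csf1r, Cd68 and Emr1 (F4/80) were high in every library, and C1qa had 80 to 1776 counts. Other genes of the KC list were low or absent in most libraries. Clec4f had 0 and 244 counts in ND, 42, 0 and 0 on vehicle and 219, 6, 4 and 6 on DPI. Cd5l had 0 and 113 counts in ND, 33, 42 and 0 on vehicle and 601, 20, 24 and 9 on DPI. Timd4 reached 28 counts in ND2, Vsig4 reached 49 in DPI1, and Marco reached 1 count in a single library. The monocyte genes Ly6c2, Ccr2 and Chi3l3 and the neutrophil genes S100a8 and S100a9 had at least 554 counts each in every library, so the values below describe the sorted cells as a mixture, and in such bulk RNA fewer cells of a type and less RNA per cell cannot be told apart.

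The promoters of 8 of the 9 genes were found in RefSeq (GRCm38.p6), and Cxcl16 was not among them. The windows from 250 to 31 bases before the start of transcription were searched on both strands for the letters GGNNNTTCC, which resemble an NF-kB site, GAAANNGAA, which resemble an interferon-stimulated response element, and TTCNNNGAA, which resemble a STAT site. Of 32851 promoter windows of that length, 13.4% held the first, 6.29% the second and 6.27% the third. The windows of 2 neighbouring pairs are shown 5′ to 3′ with every match in capitals, because the genes of the first pair (Cxcl1 and Cxcl2) parted in these libraries and those of the second (Cxcl9 and Cxcl10) were high in several of the same libraries.
Cxcl1 promoter, chr5:90890995-90891214, plus strand: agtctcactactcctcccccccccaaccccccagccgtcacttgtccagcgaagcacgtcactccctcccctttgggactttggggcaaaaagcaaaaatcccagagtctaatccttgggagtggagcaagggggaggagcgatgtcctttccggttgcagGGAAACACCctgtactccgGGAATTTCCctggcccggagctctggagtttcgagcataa
Cxcl2 promoter, chr5:90903649-90903868, plus strand: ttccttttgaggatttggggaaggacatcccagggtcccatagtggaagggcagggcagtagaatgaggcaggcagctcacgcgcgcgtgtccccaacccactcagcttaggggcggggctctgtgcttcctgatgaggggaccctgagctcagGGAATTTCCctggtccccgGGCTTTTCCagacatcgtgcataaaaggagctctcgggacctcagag
Cxcl9 promoter, chr5:92328110-92328329, minus strand: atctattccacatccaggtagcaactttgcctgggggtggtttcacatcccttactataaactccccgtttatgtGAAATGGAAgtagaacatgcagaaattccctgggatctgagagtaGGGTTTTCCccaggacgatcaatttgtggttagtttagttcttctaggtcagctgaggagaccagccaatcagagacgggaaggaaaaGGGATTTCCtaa
Cxcl10 promoter, chr5:92348920-92349139, minus strand: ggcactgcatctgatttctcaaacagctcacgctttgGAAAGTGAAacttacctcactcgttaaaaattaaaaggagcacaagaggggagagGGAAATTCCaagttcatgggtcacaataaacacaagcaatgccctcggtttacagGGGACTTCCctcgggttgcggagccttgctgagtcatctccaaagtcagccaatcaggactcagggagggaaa
The letters GGAATTTCC, which fit the pattern on both strands, stand at -70 to -62 in Cxcl1 and at -96 to -88 in Cxcl2. Each lies 10 bases from a further NF-kB-like match, GGAAACACC at -89 to -81 (matching on the opposite strand) in Cxcl1 and GGCTTTTCC at -77 to -69 in Cxcl2. Cxcl9 and Cxcl10 each carry a pair of NF-kB-like matches as well, GGGTTTTCC and GGGATTTCC in Cxcl9 and GGAAATTCC and GGGACTTCC in Cxcl10. They are the only windows among these 4 with the interferon-type letters, GAAATGGAA at -175 to -167 in Cxcl9 and GAAAGTGAA at -213 to -205 in Cxcl10. Among the other windows, Cx3cl1 held the NF-kB-like letters GGCTCTTCC, Cxcl14 held the STAT-like TTCTGAGAA and the interferon-type GAAACAGAA, and Cxcl12 and Cxcl13 held none of the 3 patterns. These matches describe letters only.

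Against ND, 3 of the 7 tested chemokine genes were higher in HFD + vehicle by the study's rule, an unadjusted p under 0.05 with at least a 2-fold change, namely Cx3cl1, Cxcl9 and Cxcl16, and none was lower. By that rule 7.03% of all tested genes were higher and 4.63% were lower. With DPI, Cx3cl1 and Cxcl9 were lower than on vehicle and none was higher, beside 1.34% of all genes lower and 1.5% higher. Between HFD + DPI and ND no chemokine gene passed, beside 6.24% of all genes higher and 3.05% lower. The median log2 fold change of the 7 genes was 1.20 for vehicle against ND, -0.84 for DPI against vehicle and 0.72 for DPI against ND, where that of all genes was 0.03, 0.04 and 0.04. The first and second of these stay as they are with Cx3cl1 at its bound against the floor, and the third is 0.60 over the 6 other genes, since Cx3cl1 was at or under the floor in both groups. By the quasi-likelihood F test of edgeR, adjusted over all genes by Benjamini and Hochberg, none of the 7 had an adjusted p under 0.05, although 3, 3 and 0 of them had an unadjusted p under 0.05, and 0.0614%, 0% and 0.00878% of all genes passed the adjustment in the 3 comparisons, the second with 470 genes at an unadjusted p under 0.05. With DESeq2 or edgeR's likelihood ratio test 1 member did so for vehicle against ND and 1 for DPI against vehicle, in each case Cx3cl1. The vehicle libraries are shared by the first and second comparison and the ND libraries by the first and the third, so each set of values is given side by side and none is evidence for another. Leaving out Veh1 or Veh3 left 1 gene past the rule for DPI against vehicle (Cx3cl1), and leaving out Veh2 gave 4. Of all genes, 324 passed in the main fit, 187 without Veh1, 210 without Veh3 and 521 without Veh2.

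**Figure D1:**
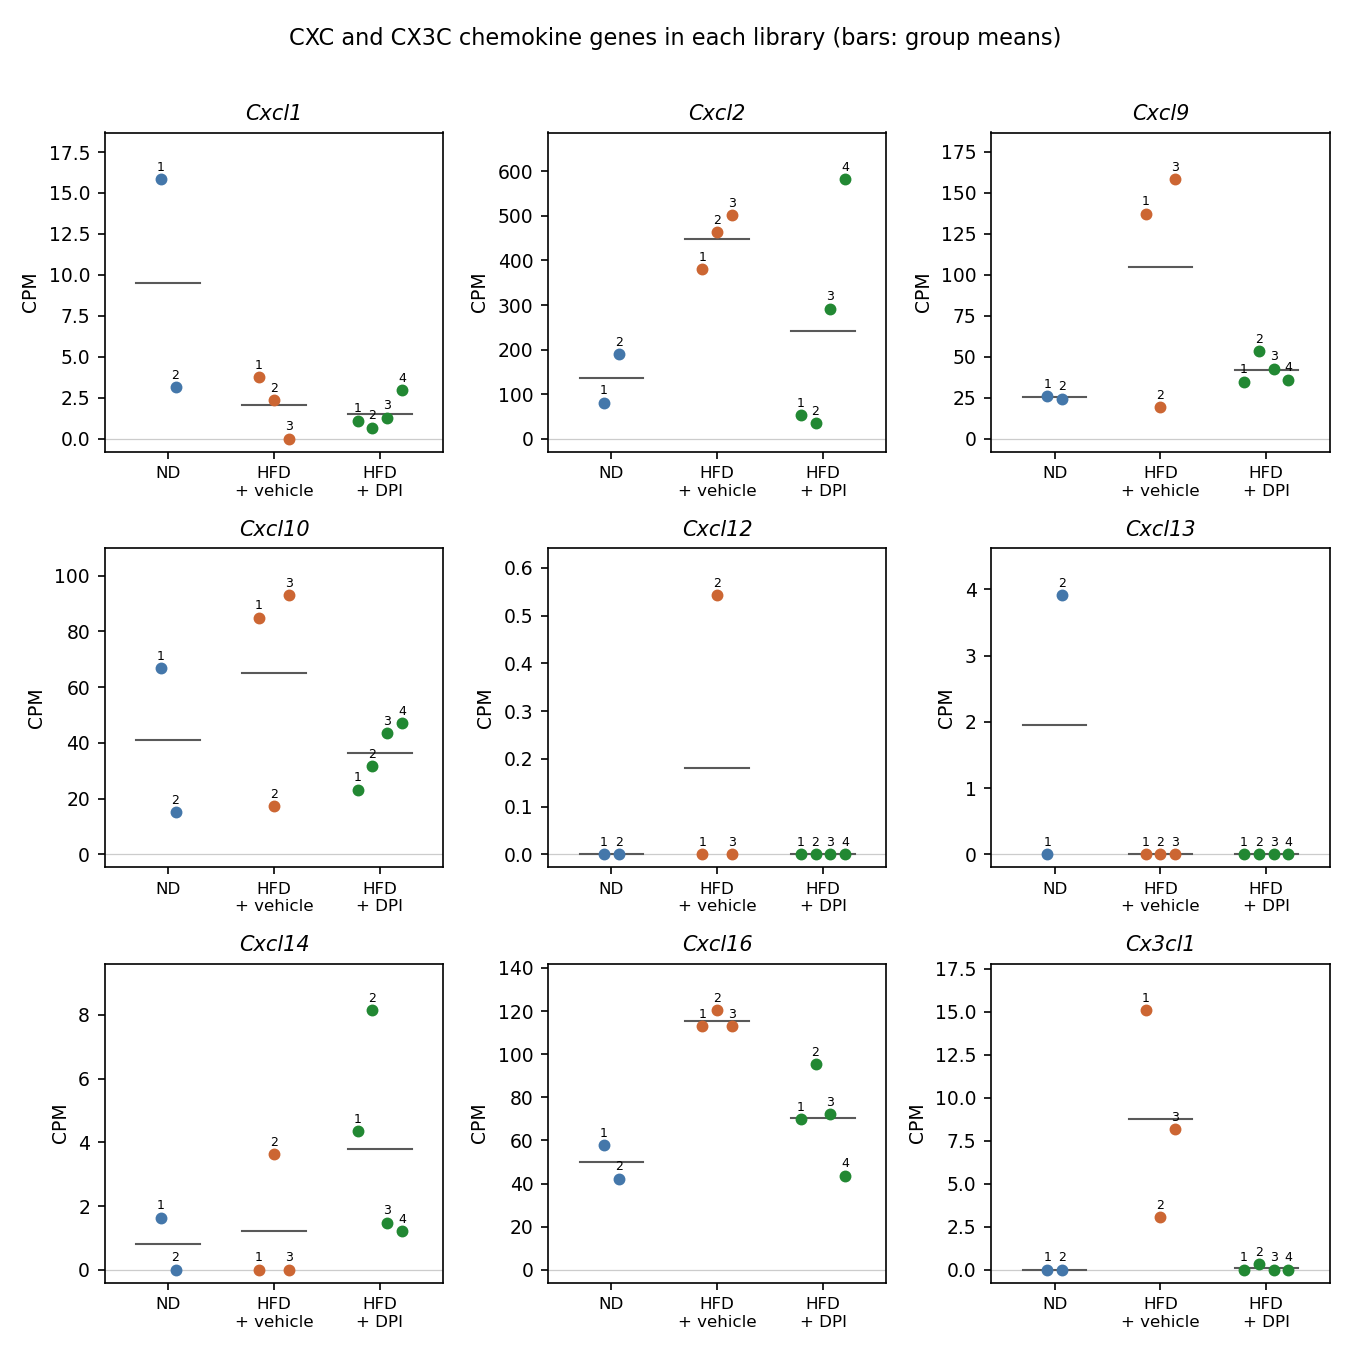
Each panel plots the CPM (TMM-scaled, linear axis) of a chemokine gene in every library, with points numbered by library and coloured by group and a horizontal bar at the group mean. Cx3cl1 lay above 3 CPM in the 3 vehicle libraries and at or under 0.339 CPM elsewhere, Cxcl16 was highest in the 3 vehicle libraries, and Cxcl9 and Cxcl10 were low in Veh2.

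Cx3cl1 (chr8:94772009-94782427, GRCm38) was found in vehicle-treated HFD-fed mice and was almost absent elsewhere. It had 0 counts in both ND libraries, 68, 17 and 33 counts (15.1, 3.08 and 8.17 CPM) in Veh1, Veh2 and Veh3, and 0, 1, 0 and 0 counts in DPI1 to DPI4. The vehicle libraries did not overlap with any other, and DPI1, the deepest library, where 3 counts are worth 0.184 CPM, had none. Measured against the floor of 3 counts per library, the vehicle mean of 8.77 ± 6.02 CPM (SD, n = 3) was at least 15.9-fold higher than ND, and HFD + DPI was at least 17.0-fold lower than vehicle. The lowest vehicle library taken alone gave at least 5.57-fold and 5.97-fold. The edgeR test gave an unadjusted p = 0.0034 against ND (adjusted 0.201) and an unadjusted p = 0.000664 for DPI against vehicle (adjusted 0.999), and p stayed under 0.05 in every alternative run. CX3CL1, or fractalkine, attracts and retains cells that carry CX3CR1, monocytes among them, and its messenger is best known from endothelium, epithelium and neurons. The 8 sinusoidal endothelial genes had a summed level of 218 and 335 CPM in ND, 15.4 to 30.9 CPM on vehicle and 10.7 to 240.4 CPM on DPI, and Stab2 and Clec4g had at most 8 counts in any vehicle library. The members of that list did not move alike. Stab2 and Clec4g were lower on vehicle than in ND, Oit3 overlapped, and Pecam1 was higher on vehicle (8.64, 9.05 and 1.73 CPM) than in ND (0.909 and 1.12 CPM). The part of endothelial cells in the Cx3cl1 values was not tested. All 8 exceeded 3 counts in ND1 and ND2, while 4, 2 and 6 of them did in Veh1 to Veh3 and 8, 7, 3 and 6 in DPI1 to DPI4.

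Its receptor gene Cx3cr1 was expressed in all libraries, with 187 and 97.5 CPM in ND, 92.4, 80.4 and 140.8 CPM on vehicle and 156, 161, 64.7 and 45.0 CPM on DPI. The groups overlapped, and the log2 fold changes were -0.44 (standard error 0.52) for vehicle against ND and 0.03 (standard error 0.44) for DPI against vehicle.

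Cxcl16 (chr11:70453983-70459984, minus strand) was at a similar level in all vehicle libraries. It had 57.8 and 42.3 CPM in ND, 113, 120.2 and 113 CPM on vehicle and 70.0, 95.3, 72.3 and 43.6 CPM on DPI. All vehicle libraries lay above all others, and the DPI libraries overlapped with ND through DPI4. The level was 2.30-fold higher on vehicle than in ND, or 1.20 on the log2 scale (standard error, SE, 0.37, unadjusted p = 0.00603, adjusted 0.238). Scaled by library size alone, it was 0.91 and no longer reached a 2-fold change. With DPI it was 1.65-fold lower than on vehicle, or -0.72 on the log2 scale (SE 0.29, unadjusted p = 0.0295), which is short of the study's 2-fold threshold and whose unadjusted p ran from 0.0122 to 0.0653 over the fits without a library, and against ND the change was 0.48 (SE 0.34). CXCL16 is at once a chemokine for CXCR6+ T and NKT cells and, on the membrane, a scavenger receptor of macrophages for oxidized lipids and phosphatidylserine. Zmynd15 starts on the opposite strand inside the gene and overlaps it over 552 bases, and 19% of the stretches of 50 bases in the longest Cxcl16 transcript also lie in Zmynd15 transcripts. Whether counting used strand is not given in the sources used here, and Zmynd15 had 3 to 76 counts per library, against 227 to 1143 for Cxcl16.

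Its receptor gene Cxcr6 was low, at 0 and 2.61 CPM in ND, 2.66, 4.71 and 2.97 CPM on vehicle and 7.77, 8.14, 0 and 3.67 CPM on DPI. The vehicle libraries lay just above ND2, and the DPI libraries overlapped with both other groups. Of the sheddases, Adam17 had 31.8 and 16.8 CPM in ND, 57.2, 46.2 and 58.4 CPM on vehicle and 31.5, 39.3, 26.7 and 33.0 CPM on DPI. As for Cxcl16, the vehicle libraries of Adam17 lay above all others. Adam17 passed the study's rule for vehicle against ND, at a log2 fold change of 1.15 (SE 0.41, unadjusted p = 0.0144, adjusted 0.289), and its value for DPI against vehicle was -0.73 (SE 0.33, unadjusted p = 0.0442). The first of these calls was lost without ND2 (0.79, unadjusted p = 0.115) and with library size scaling (0.84, unadjusted p = 0.0715). Adam10 differed by less than its error, at -0.29 (SE 0.36) and -0.22 (SE 0.31).

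Cxcl9 (chr5:92321347-92328079, minus strand) was high in 2 of the 3 vehicle libraries. It had 26.2 and 24.4 CPM in ND, 137, 19.2 and 158 CPM in Veh1, Veh2 and Veh3, and 34.9, 53.6, 42.8 and 36.1 CPM on DPI. Veh2 was the lowest of all 9 libraries, while the DPI libraries were close together and all above ND. The group means were 25.3 ± 1.24 CPM for ND (SD, n = 2), 105 ± 74.9 CPM for vehicle (SD, n = 3) and 41.8 ± 8.57 CPM for DPI (SD, n = 4). Its log2 fold change was 2.05 for vehicle against ND (SE 0.66, unadjusted p = 0.00797, adjusted 0.258) and -1.33 for DPI against vehicle (SE 0.51, unadjusted p = 0.0204, adjusted 0.999), or 4.14-fold higher and 2.51-fold lower. Against ND it was 0.72 on DPI (SE 0.60, unadjusted p = 0.251). The call for DPI against vehicle was lost without Veh1 (-1.08, unadjusted p = 0.0868), without Veh3 (-0.91, unadjusted p = 0.133) or without DPI4 (-1.26, unadjusted p = 0.0501). Without Veh2 the change was -1.82 (unadjusted p = 5.29e-05). With the replicate number as a block both calls were lost, at 1.66 for vehicle against ND (unadjusted p = 0.0503) and -1.01 for DPI against vehicle (unadjusted p = 0.14).

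Cxcl10 (chr5:92346638-92348889, minus strand), the neighbour of Cxcl9, had 66.7 and 15.1 CPM in ND, 84.9, 17.2 and 93.0 CPM in Veh1, Veh2 and Veh3, and 23.2, 31.5, 43.4 and 47.0 CPM on DPI. Veh1 and Veh3 were again the highest and Veh2 was again low, but ND1, where Cxcl9 was low, held more Cxcl10 than any DPI library. The groups overlapped, and none of the comparisons passed, with log2 fold changes of 0.67 (SE 0.68), -0.84 (SE 0.56) and -0.17 (SE 0.63) for vehicle against ND, DPI against vehicle and DPI against ND. Single libraries decided these values. Without ND1 the first was 2.11 (unadjusted p = 0.0194) and without ND2 it was -0.02, and without Veh2 the second was -1.29 (unadjusted p = 0.022). The ratio of Cxcl9 to Cxcl10 counts was 0.392 in ND1 and 0.768 to 1.70 in the other 8 libraries.

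Cxcl11, a further ligand of CXCR3, was tested on 4 to 48 counts per library, with log2 fold changes of 2.06 (SE 1.07) and -0.23 (SE 0.81) for the first and second comparison. Cxcr3 itself had 0 and 76 counts in ND, 41, 24 and 8 on vehicle and 160, 34, 55 and 1 on DPI, so it spread within groups by more than between them. Ifng, the inducer of these ligands, had 0 and 2.98 CPM in ND, 3.55, 12.7 and 16.3 CPM in Veh1 to Veh3 and 0.551, 12.9, 3.71 and 3.06 CPM on DPI. Veh2 held 12.7 CPM of Ifng and the least Cxcl9, and the part of Ifng in the levels of Cxcl9 was not tested. The log2 fold change of Ifng for vehicle against ND was 2.85 (SE 1.52, unadjusted p = 0.0822), or 1.87 without ND1, and it passed with DESeq2 (2.83, unadjusted p = 0.0369) and without ND2 (unadjusted p = 0.00474), where the ND library left had 0 counts. The 7 T and NK cell genes summed to 69.3 and 199 CPM in ND, 138, 279.6 and 222 CPM on vehicle and 179, 381, 200.1 and 169.96 CPM on DPI, with 5 to 7 of the 7 above 3 counts in each library, and their part in the levels of Cxcl9 and Cxcl10 was not tested. Irf1, a transcription factor of interferon gamma signalling, gave 0.51 (SE 0.30) for vehicle against ND and -0.34 (SE 0.25) for DPI against vehicle.

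Cxcl2 (chr5:90903871-90905938, plus strand) had the highest level per length of the 9 genes in each group mean, at 72.9 CPM per kb of its longest coding transcript in ND, 241 on vehicle and 129 on DPI. It was not the highest per length in every library, since Cxcl10 exceeded it in ND1 and both Cxcl10 and Cxcl16 did in DPI2. By library it had 80.7 and 190.2 CPM in ND, 381, 464 and 502 CPM on vehicle and 53.6, 35.6, 292 and 582 CPM in DPI1 to DPI4. The vehicle libraries lay above ND and close together, whereas DPI1 and DPI2 lay below ND and DPI4 above every other library. For vehicle against ND the log2 fold change was 1.73 (SE 0.90, unadjusted p = 0.0762) and it was -0.90 for DPI against vehicle (SE 0.70, unadjusted p = 0.222), and neither passed. The first did pass in a fit of those 2 groups alone (1.73, unadjusted p = 0.00233), without a filter on low counts (unadjusted p = 0.0252) and without ND2 (2.50, unadjusted p = 0.0487), DPI1 (unadjusted p = 0.047), DPI2 (unadjusted p = 0.0309) or DPI4 (unadjusted p = 0.0423). The second passed without DPI4 (-1.82, unadjusted p = 0.0174) and was -0.56 without DPI1 and -0.55 without DPI2. With the replicate number as a block both passed, at 1.37 (unadjusted p = 0.0349) and -2.41 (unadjusted p = 0.00101). Of the 1810 stretches of 50 bases in its longest coding transcript, 3.37% occur in Cxcl3 as well.

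Cxcl2 was set beside neutrophil genes in each library. The 7 neutrophil genes in the table (S100a8, S100a9, Retnlg, Csf3r, Mmp8, Ngp and Camp), all above 3 counts in every library, summed to 1407 and 3175 CPM in ND, 2421, 3169.8 and 3763 CPM on vehicle and 969, 774, 3618 and 5362 CPM on DPI. DPI2 and DPI1 were the lowest and DPI4 the highest of the 9 libraries for both measures. S100a8 and S100a9 made up most of the sum except in ND1 and DPI1, and other genes of the list had another order. Mmp8 was highest in DPI1 (289 CPM) and lower on vehicle (74.3, 124 and 131 CPM) than in ND (251 and 231 CPM), as was Camp (11.1, 22.5 and 20.8 CPM against 48.2 and 33.9 CPM), and Ngp was highest in DPI3 (432 CPM). The sort kept Gr1low cells, a gate that leaves out Gr1-high neutrophils, and the part of neutrophils in the Cxcl2 values was not tested. Cxcr2, the receptor of CXCL1 and CXCL2 and itself a neutrophil gene, had 33.1 and 122 CPM in ND, 152, 179 and 203 CPM on vehicle and 75.8, 93.6, 129 and 246 CPM on DPI. The Cxcr2 log2 fold change was 1.20 against ND (SE 0.56, unadjusted p = 0.0514) and -0.38 on DPI (SE 0.45). Over the 9 libraries, the 3 genes whose log2 CPM was most like that of Cxcl2, of 6759 genes with at least 10 counts in every library, were Il1r2 (Pearson r = 0.993), Ets2 (0.984) and Irg1 (0.976).

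**Figure D2:**
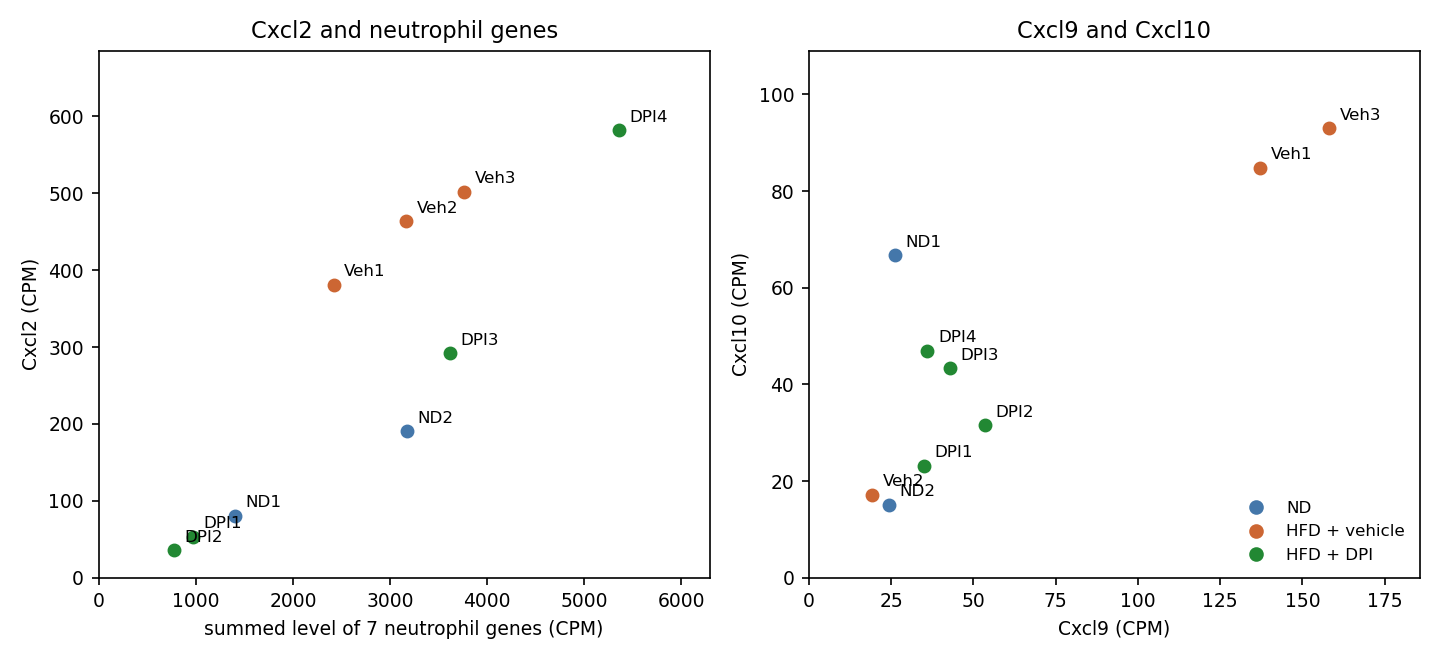
On the left, Cxcl2 (CPM, vertical) is set against the summed level of 7 neutrophil genes (CPM, horizontal), and on the right Cxcl10 against Cxcl9 (CPM), with a point for each of the 9 libraries coloured by group and both axes linear from 0. DPI1 and DPI2 sit at the lower left and DPI4 at the upper right for Cxcl2, and Veh1 and Veh3 stand apart at the upper right for Cxcl9 and Cxcl10, where Veh2 lies at 19.2 CPM of Cxcl9.

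Cxcl1 (chr5:90891241-90893115, plus strand), the neighbour of Cxcl2 with the same receptor, was low in all groups. It had 15.8 and 3.17 CPM in ND, 3.77, 2.35 and 0 CPM on vehicle and 1.10, 0.678, 1.30 and 2.95 CPM on DPI. ND1 was the highest by far, and ND2 lay below Veh1. The log2 fold change was -2.20 for vehicle against ND (SE 1.38, unadjusted p = 0.135) and -2.61 for DPI against ND (SE 1.27, unadjusted p = 0.0593), and that for DPI against vehicle was -0.41 (SE 1.18), with the sign turned without Veh1. The value for DPI against ND passed the study's rule with DESeq2 (unadjusted p = 0.0305), with the likelihood ratio test (unadjusted p = 0.0281), with library size scaling (unadjusted p = 0.0441) and in a fit of those 2 groups (unadjusted p = 0.0334). It passed without ND2 (-3.32, unadjusted p = 0.0236), Veh3 (unadjusted p = 0.0304) or DPI4 (-3.16, unadjusted p = 0.049) as well. Both comparisons with ND rested on ND1, without which the value was -0.61 for vehicle (unadjusted p = 0.753) and -1.04 for DPI (unadjusted p = 0.572). The other CXCR2 ligands were as sparse, with 0 to 73 counts of Cxcl3 and 2 to 30 counts of Cxcl5 per library, and neither passed in any comparison.

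Cxcl14 (chr13:56288643-56296551, minus strand), a chemokine best known from epithelia, had 9 and 0 counts in ND, 0, 20 and 0 counts on vehicle and 71, 24, 8 and 12 counts on DPI. It was above 3 counts in all 4 DPI libraries and in a single library of each other group, and Veh2 lay among the DPI libraries at 3.62 CPM. Against ND the vehicle group gave a log2 fold change of 0.58 (SE 2.00). The value was 1.60 for DPI against vehicle (SE 1.69, unadjusted p = 0.361) and 2.17 for DPI against ND (SE 2.04, unadjusted p = 0.307). The latter was 1.22 without ND2, and without ND1 the ND library left had 0 counts. The comparison of DPI with vehicle rested on Veh2, without which its unadjusted p was 0.0219.

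Cxcl13 (chr5:95956951-95961068, plus strand) had 21 counts in ND2 and 0 in the other 8 libraries, so any group difference is that of a single library. Of the 8 stellate cell and fibroblast genes, Colec11 had 38 counts in ND2 and 0 elsewhere and Lrat 22 in ND2 and at most 1 elsewhere, whereas Dcn, Reln, Col1a1 and Rgs5 had 0 in ND2, and the part of other cells in the Cxcl13 counts was not tested. Cxcl12 (chr6:117168535-117181367, plus strand), a product of stromal and endothelial cells, had 3 counts in Veh2 and none elsewhere, which is at the floor. At these depths a level under 0.184 to 1.02 CPM could not be told apart from 0.

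The receptors of these last ligands were present, with Cxcr4 among the more abundant receptor genes. Cxcr4 had 60.4 and 59.1 CPM in ND, 239, 194 and 182 CPM on vehicle and 28.0, 54.6, 123 and 182 CPM on DPI. All vehicle libraries were above ND, and the DPI libraries ran from below ND up to the level of Veh3. It passed the study's rule in both comparisons, at 1.78 on the log2 scale for vehicle against ND (SE 0.61, unadjusted p = 0.0115, adjusted 0.281) and -1.08 for DPI against vehicle (SE 0.47, unadjusted p = 0.0396, adjusted 0.999). The second call was lost without any of Veh1, Veh2, Veh3, DPI1 or DPI2, with values of -0.77 to -1.17, and with library size scaling (-0.98).

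Cxcr5, the receptor of CXCL13, had 1 and 8 counts in ND, 113, 140 and 46 on vehicle and 97, 28, 97 and 427 on DPI. Every HFD library, with or without DPI, was above both ND libraries at 5.94 to 43.5 CPM, and DPI4 was the highest. In log2 terms the difference was 4.60 for vehicle against ND (SE 1.09, unadjusted p = 0.000926, adjusted 0.136) and 4.50 for DPI against ND (SE 1.07, unadjusted p = 0.000936, adjusted 0.146). It was -0.09 for DPI against vehicle (SE 0.69). For vehicle against ND the adjusted p was 0.000712 with DESeq2, 0.00418 with the likelihood ratio test and 0.0474 without the filter. In those runs 397, 280 and 52 of all genes passed an adjusted p of 0.05. Without ND1 the value for vehicle against ND was 3.78. Without ND2 the ND library left had 1 count, under the floor, so the 6.72 found there is not the size of a change. The 3 B cell genes (Cd79a, Cd79b and Ms4a1) summed to 14.9 and 53.5 CPM in ND, 70.04, 155 and 112 CPM on vehicle and 32.3, 11.9, 102 and 331 CPM on DPI, highest in DPI4 as well, with 2 and 3 of the 3 above 3 counts in the ND libraries and 3 of 3 in each HFD library. Their part in the Cxcr5 values was not tested.

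**Figure D3:**
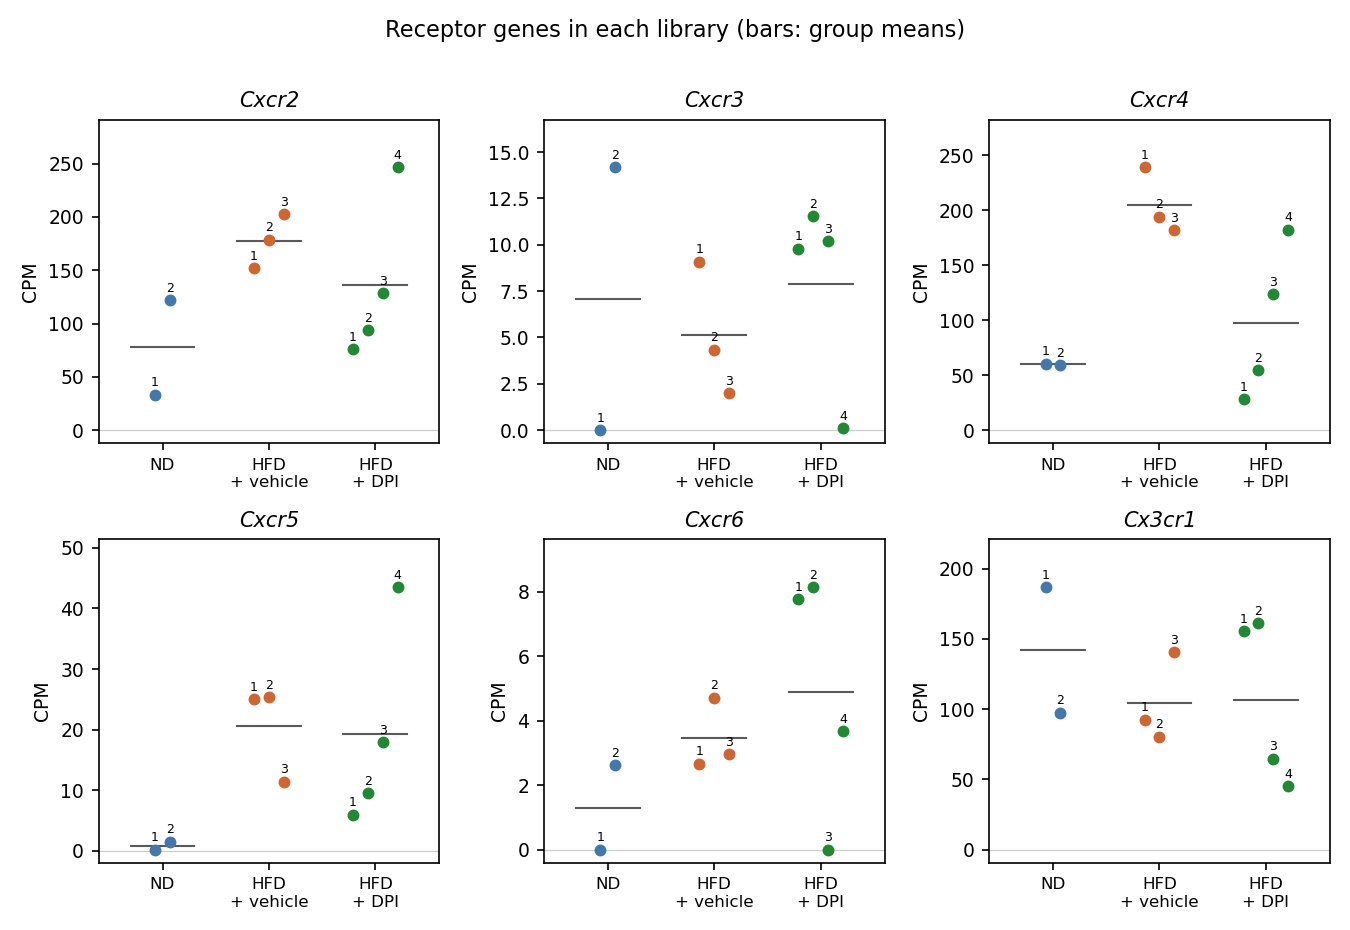
The CPM (TMM-scaled, linear axis) of 6 receptor genes is plotted in every library, with points numbered by library and coloured by group and a bar at the group mean. Cxcr5 was at or under 1.49 CPM in ND and at least 5.94 CPM in the 7 HFD libraries, Cxcr4 was at 182 CPM or more in each vehicle library, and Cxcr3 and Cx3cr1 overlapped between groups.

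Of the 9 receptor genes listed, 6 were tested, and 2 were higher and none lower by the study's rule for vehicle against ND (Cxcr4 and Cxcr5), none higher and 1 lower for DPI against vehicle (Cxcr4), and 1 higher and none lower for DPI against ND (Cxcr5). The shares of all tested genes were 7.03% higher and 4.63% lower, 1.5% and 1.34%, and 6.24% and 3.05% in these comparisons. The median log2 fold change of the 6 was 1.29, -0.03 and 0.76, beside 0.03, 0.04 and 0.04 over all genes. Of 6 genes of ligand processing, Adam17 passed for vehicle against ND and Dpp4, which trims and inactivates several of these chemokines, for DPI against ND. Dpp4 had 3.09 and 7.27 CPM in ND, 20.6, 8.51 and 12.1 CPM on vehicle and 12.3, 11.2, 22.4 and 21.2 CPM on DPI. Both ND libraries were the lowest of the 9, and the log2 fold change for DPI against ND was 1.69 (SE 0.66, unadjusted p = 0.0232, adjusted 0.41), lost without ND1 (1.21, unadjusted p = 0.126) or DPI3 (1.52, unadjusted p = 0.0565). None of the 4 tested genes among the other CXC ligands passed in any comparison.

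Of 9 listed genes of NF-kB and interferon signalling and of inducing cytokines, 1 passed the study's rule, Nfkbia for vehicle against ND, and none passed for DPI against vehicle or DPI against ND. A single call of 9 is near the 7.03% of all genes that were higher in the first comparison. Nfkbia, the inhibitor of NF-kB that NF-kB itself induces, had 268 and 328 CPM in ND, 567, 689.8 and 597 CPM on vehicle and 340.0, 339, 628 and 759 CPM on DPI. The vehicle libraries were above ND, and DPI1 and DPI2 lay just above ND while DPI3 and DPI4 matched or passed the vehicle libraries. The log2 fold change for vehicle against ND was 1.05 (SE 0.37, unadjusted p = 0.0135, adjusted 0.289), and it fell short of a 2-fold change without ND1 (0.93) or Veh2 (0.97) and with library size scaling (0.77). Rela, a subunit of NF-kB, gave -0.56 for DPI against vehicle (SE 0.28, unadjusted p = 0.0635). For the 9 genes the median log2 fold change was 0.53, -0.34 and 0.25 in the 3 comparisons, against 0.03, 0.04 and 0.04 for all genes.

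**Figure D4:**
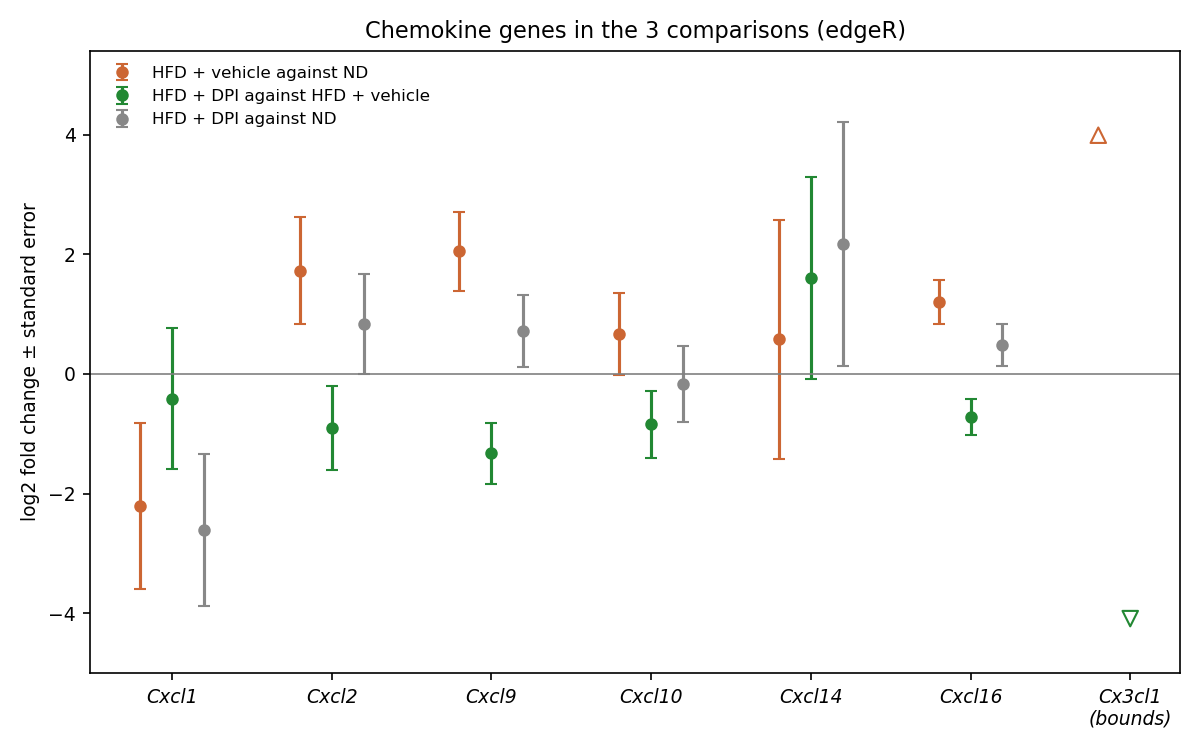
Points give the log2 fold change from edgeR and bars its standard error for 6 chemokine genes in the 3 comparisons, and open triangles give the bounds for Cx3cl1 computed against the floor of 3 counts per library (at least 15.9-fold higher and at least 17.0-fold lower). Cxcl9 and Cxcl16 lay furthest from 0 relative to their error, above it for vehicle against ND and below it for DPI against vehicle, and Cxcl1 and Cxcl14 had the widest errors.

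Beside Cxcl2, 3 members had at least 10 counts in every library and could be matched with other genes over the 9 libraries in the same way. The genes most like Cxcl9 were Zfp646 (Pearson r = 0.994), Tlr9 (0.954) and Gak (0.953), those most like Cxcl10 were Setd1b (0.976), Slc35a3 (0.972) and Tnks (0.965), and those most like Cxcl16 were Psme2 (0.934), Cstb (0.931) and Dnajb1 (0.898). None of the other chemokine genes was among these. The levels share library, depth and scaling, and each list is the top of 6759 genes.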

How the data were processed

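Liver macrophages were sorted from single-cell suspensions of digested livers, and their RNA was sequenced in 9 libraries (2 ND, 3 HFD + vehicle, 4 HFD + DPI). The authors deposited whole-number counts per gene symbol without normalization. The study's methods give bowtie2 2.2.3 and RSEM 1.2.15 on the mouse genome mm10, while the submitters' processing notes name TopHat2 and edgeR, and how estimates became whole numbers is not given in the sources used here. All 9 columns were used.

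The counts were tested here in R 4.3.3 with edgeR 4.0.16. After filterByExpr, 11393 genes entered a fit of the 3 groups with TMM factors (glmQLFit, glmQLFTest), with a biological coefficient of variation of 0.65, and p was adjusted by Benjamini and Hochberg over all of them. The rule of the study's methods is an unadjusted p under 0.05 with a change of at least 2-fold. Standard errors were derived from that fit, as the size of the log2 fold change divided by the square root of the F statistic. Levels are CPM on TMM-scaled library sizes, and log2 CPM for matching genes used a prior count of 2. A fold against a group with at most 3 counts in every library is a bound against 3 counts per library. Such floors cover counting error only, since PCR copies of a molecule were not marked and may be counted again, and with 2 to 4 libraries per group p measures the spread between these libraries.

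The 9 genes, the lists of receptors, other ligands, processing enzymes and inducers, and the marker lists were chosen with earlier results of these data known. All 9 genes are described, and of the listed genes those past the study's rule in any comparison were named (at most 8 by smallest p, with 3 inducers by smallest p), while others appear as partners of a member. A gene each of the lists of inducers and of B cell markers is not reported here. Cxcl15 and Ly6g were not analysed here, and Cxcl17 had 0 counts in each library. Emr1 and Chi3l3 are now named Adgre1 and Chil3. Positions and transcript lengths came from GENCODE M21 (GRCm38, the assembly of mm10), promoters from RefSeq, and motif searches and shared stretches of 50 bases were computed in Python 3.11.15 with numpy 2.4.6 and pandas 2.3.3, and figures with matplotlib 3.10.9. The edgeR script was tested on simulated data. Results were recomputed with RLE factors, with library size alone, without the filter, with DESeq2 1.42.0, edgeR's likelihood ratio test, in fits of 2 groups, without Rn45s, with the replicate number as a block and without each library in turn. No column of the authors' own comparisons was part of the table.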

Additional observations from a re-analysis of the deposited data

Results flagged for a closer look

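In HFD + DPI, the group with 4 libraries, 14 genes were examined for a library that stood apart, and 1 was found. Cx3cl1 reached 0.339 CPM in DPI2 against 0 CPM in the other 3 libraries, a gap that passes Dixon's test at the 95% level. That value is 1 count, under the floor of 3 counts. With 0 in the other libraries the ratio of the test is 1 for any value, so it had to pass. The 5% of groups that chance picks out at this level does not apply to such ties.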

How the results depend on the processing

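For the 7 chemokine genes that were tested, 306 of 339 recomputed values kept their direction and their side of the study's rule, 6 lost a call, 19 gained one and 8 changed sign; for the named receptors, proteases and inducers it was 324 of 357, with 15, 8 and 10. Cx3cl1 passed for vehicle against ND and for DPI against vehicle under every alternative. Past an adjusted p of 0.05, 1 chemokine gene was found with DESeq2 and 1 with the likelihood ratio test, for vehicle against ND and for DPI against vehicle, against 0 otherwise. By the study's rule, the count for vehicle against ND went from 3 to 5 without the filter (Cxcl2 higher and Cxcl13 lower were added). For DPI against vehicle it ran from 1 to 4 over the fits without a library. For DPI against ND it was 1 in place of 0 with library size alone, DESeq2, the likelihood ratio test or 2 groups (Cxcl1) and 1 without the filter (Cxcl13), and 0 to 1 over the fits without a library (Cxcl13 without ND1; Cxcl1 without ND2, Veh3 or DPI4).

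With single libraries left out, signs turned within these ranges of log2 fold change. For vehicle against ND, Cxcl10 ran from -0.017 to 2.11 and Cxcl14 from -5.50 to 6.09, both ends set by a group at 0 counts (vehicle without Veh2, ND without ND1) and so not sizes of a change. For DPI against vehicle, Cxcl1 ran from -0.99 to 0.33 and Cxcr5 from -0.89 to 0.21. For DPI against ND, Cxcl2 ran from -0.092 to 1.60, Cxcl10 from -0.85 to 1.27 and Rela from -0.15 to 0.082. Where 1 ND library was left, it was assumed to vary like the other groups.

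Genes past an adjusted p of 0.05 numbered 7 for vehicle against ND, but 1 with library size alone, 52 without the filter, 397 with DESeq2, 280 with the likelihood ratio test, 0 with 2 groups, and 1 to 568 with single libraries left out (568 without ND2). For DPI against vehicle 0 became 2 with DESeq2 and 1 with the likelihood ratio test. For DPI against ND 1 became 22 without the filter, 266 with DESeq2, 186 with the likelihood ratio test, 0 with 2 groups, and 1 to 572 with single libraries left out (572 without ND2). By the study's rule the 1329 genes for vehicle against ND became 1027 to 2634 with single libraries left out, the 324 for DPI against vehicle became 187 to 544 and, without the filter, 602, and the 1058 for DPI against ND became 830 to 2626. The cause was not tested.

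With library size alone the median change over all tested genes, in log2, shifted from 0.03, 0.04 and 0.04 to -0.26, 0.12 and -0.17, and the calls by the study's rule from 801 higher and 528 lower to 539 and 932 for vehicle against ND, from 171 and 153 to 196 and 101 for DPI against vehicle, and from 711 and 347 to 546 and 624 for DPI against ND. Levels were also scaled by library size without Rn45s and without TMM factors, and 8 of 27 group levels then moved by more than their SD. Examples are Cxcl9 in ND from 25.3 to 43.4 CPM, Cxcl16 in ND from 50.1 to 86.4 CPM and Cxcl2 on vehicle from 449 to 659 CPM. All of them moved up, which was fixed in advance, since these totals are smaller than the TMM-scaled ones.

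Deviations from the group means correlated at -0.02 to 0.08 over 7 pairs of libraries that share a number. Over 19 pairs with unlike numbers the correlations were -0.08 to 0.06. The deviations of the 2 ND libraries mirror each other, so this check cannot decide whether the numbers pair the libraries. With the number as a block, 0 genes passed the adjusted p in each comparison, 3, 2 and 0 chemokine genes passed the study's rule (Cxcl2 among them in the first and second comparison, Cxcl9 in none), and the sign turned for Cxcl14 for vehicle against ND (-0.11) and for Cxcl2 (-1.03) and Cxcr4 (-0.22) for DPI against ND. With the block, Nfkbia fell short of a 2-fold change for vehicle against ND (0.93), and Dpp4 did not pass for DPI against ND (1.36, unadjusted p = 0.132), while Ifng passed for vehicle against ND (3.87, unadjusted p = 0.0209). Depth limits Cxcl1, Cxcl12, Cxcl13, Cxcl14 and Cx3cl1, which were at or under 3 counts in at least 1 library each.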
